A study of Homo sapiens with 9 samples.

Results

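The genes described here were 48 genes of mitosis and of the condensin complexes, taken by symbol from the deposited table of normalized counts, out of 57736 genes in the count table. They were listed by symbol for their roles, with no measured value in the rule, and cover the cyclin B and CDK1 module, the mitotic kinases, the spindle checkpoint, the ubiquitin pathway that ends mitosis, kinesins, centromere proteins, spindle and cytokinesis factors, condensin with topoisomerase II, and the transcription factors FOXM1 and MYBL2. The RNA came from SKMEL-147, a human melanoma cell line, in which PHF8 was targeted by CRISPR-Cas9. PHF8 is a histone demethylase that removes methyl groups from histone H3 and the single methyl group of H4K20. There were 9 RNA-seq libraries, 3 per group: sgScr carried a scrambled guide RNA, and sgPHF8-1 and sgPHF8-3 each carried a different guide against PHF8. According to the methods of the study, all cells, controls included, stably expressed Cas9 after blasticidin selection and then received the guide from a lentivirus with a GFP reporter. They were infected populations, and a cloning step is not given in the sources used here, nor is the time from infection to RNA extraction. The 3 libraries of a group were biological replicates in the study's words, but how their cultures were kept apart is not described, so that p-values measure only the spread between these libraries. Both guides were compared with the same 3 sgScr libraries.

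In a dividing cell, CDK1 bound to a B-type cyclin starts mitosis, the Aurora and Polo-like kinases build the spindle, and the spindle checkpoint holds back the anaphase-promoting complex until every chromosome is attached. Condensin is a ring-shaped ATPase that compacts chromosomes: SMC2 and SMC4 form the core of both types, condensin I adds NCAPD2, NCAPG and NCAPH, and condensin II adds NCAPD3, NCAPG2 and NCAPH2. H4K20me1, the mark that PHF8 removes, rises toward mitosis and is known to be bound by subunits of condensin II. Most mitotic genes are transcribed in late S and G2 phase, so that in RNA from a whole culture fewer dividing cells and less RNA per cell cannot be told apart.

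Each library held between 17366120 and 19838142 counts, of which the 48 genes took 1.01% to 1.14%. The least counted value of any of them was 570 reads, for CDC25C, and the most was 15667 reads, for TOP2A. All 48 passed the filter on low counts that left 14614 genes for testing. Within a group the 48 genes varied little, with a median coefficient of variation of 2.1% in sgScr, 2.62% in sgPHF8-1 and 2.23% in sgPHF8-3. Of 7 melanocyte-lineage markers, SOX10 and MITF were expressed, with group means of 2440.2 to 2771 and 229 to 279 normalized counts, MLANA and TYR were at 0 in every library, and PMEL, DCT and S100B did not exceed 11.2. Of 4 markers of dedifferentiated melanoma, AXL had group means of 27638 to 29234 and EGFR of 1864 to 2113, while NGFR had 11693 in sgScr, 7199 in sgPHF8-1 and 9570 in sgPHF8-3, and JUN had 4553, 5174 and 4440. Of 6 markers of other cell types, CD3E was at 0 in every library, PTPRC, CDH5 and KRT5 did not exceed 3.25, the leukocyte marker CD14 did not exceed 13.1, and the keratinocyte marker KRT14 had group means of 40 in sgScr, 18.8 in sgPHF8-1 and 21.4 in sgPHF8-3. The endothelial marker PECAM1 was also on the list but was not matched to a gene row, so it was not read. The part of these markers in the results was not tested. The library sgPHF8-1 B lay further from sgPHF8-1 A and C (chi-square per degree of freedom 2.93 and 3.87 over the genes) than they did from each other (1.78), and had 22427 genes with counts, where the other libraries had 23035 to 23229. In sgPHF8-3, A and C also differed (3.01), with 1.57 between A and B and 2.06 between B and C, while sgScr pairs had 1.31 to 1.54. Without sgPHF8-1 B, 4 of the 48 genes rose and 8 fell with sgPHF8-1, 34 rose and 0 fell with sgPHF8-3, and 27 were higher and 0 lower with sgPHF8-3 than with sgPHF8-1, beside the counts over all libraries given with each comparison.

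PHF8 itself had normalized counts of 655, 606 and 634 in sgScr, 564, 571 and 565 in sgPHF8-1 and 399.8, 387 and 434 in sgPHF8-3. Every library of either PHF8 guide lay below every sgScr library, and the sgPHF8-3 libraries lay below those of sgPHF8-1. The log2 fold change against sgScr was -0.16 ± 0.055 (SE, n = 3 per group) for sgPHF8-1, with an adjusted p of 0.0253 by edgeR's quasi-likelihood test with Benjamini-Hochberg adjustment over all genes tested, and -0.63 ± 0.058 for sgPHF8-3, with an adjusted p of 2.32e-11. The sgPHF8-1 call was lost without sgPHF8-1 A (0.07), sgPHF8-1 C (0.0539), sgScr A (0.119) and sgScr C (0.0692), with DESeq2 (0.126) and with the length-trend offsets (0.172), where the value in parentheses is the adjusted p. A guide that shifts the reading frame need not lower the messenger RNA, so these counts do not measure how much protein was left.

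With sgPHF8-3, most of the mitotic genes were slightly higher than in the control. Of the 48 genes, 29 rose and 0 fell at an adjusted p under 0.05, where 9.89% of all genes tested rose and 10.1% fell (20% in either direction). At an unadjusted p under 0.05, 39 were higher and 0 lower, DESeq2 called 25 higher and 0 lower, and limma called 29 higher and 0 lower. Over all genes, DESeq2 called 14.1% and limma 18.8% in either direction, and the share at an unadjusted p was not counted. The median log2 fold change of the 48 was 0.11, an increase of 7.81%, beside a median of -0.00076 over all genes tested. The 3 sgPHF8-3 libraries lay wholly above the 3 sgScr libraries for 39 genes and wholly below for 1, CDC25B, where 18.7% and 17.8% of all genes did so. The shifts were small: HMMR, with a log2 fold change of 0.26, was alone in passing 0.25, the size threshold that the study applied.

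With sgPHF8-1, the same genes went both ways. Of the 48, 7 rose and 9 fell, or 16 in either direction, against 15.5%, 15.7% and 31.2% of all genes tested, so that the share called was near that of the transcriptome. The median log2 fold change was 0.023, beside 0.00028 over all genes tested. The libraries of the groups did not overlap for 13 genes above and 10 below sgScr, where 21.1% of all genes lay above and 21.1% below. None of the 48 passed an absolute log2 fold change of 0.25, and the furthest from 0 was CDC25B at -0.21. The count of genes that rose was 3 without sgScr A, 4 without sgScr B, sgScr C, sgPHF8-1 A or sgPHF8-1 B, and 2 by DESeq2.

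**Figure D1:**
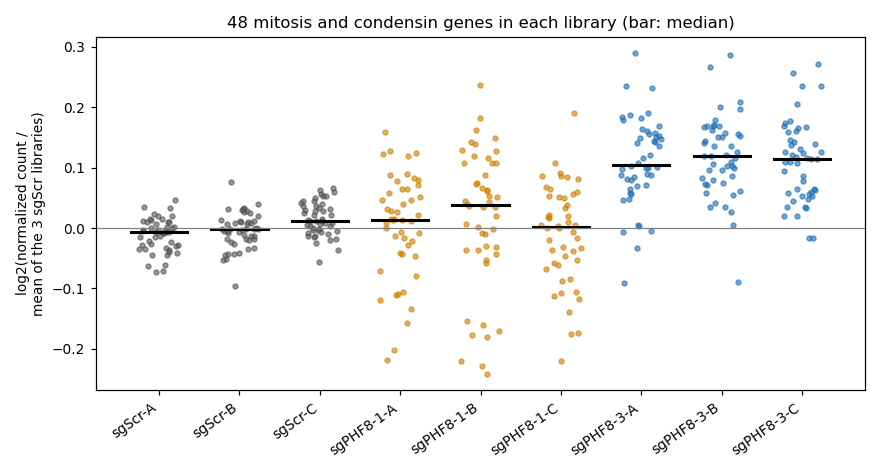
Each point is 1 of the 48 genes in 1 library, plotted as the log2 ratio of its normalized count to the mean of the 3 sgScr libraries, and each bar is the median of a library. The medians were 0.10 to 0.12 in the sgPHF8-3 libraries and 0.0011 to 0.038 in the sgPHF8-1 libraries, whose points spread on both sides of 0.

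The plot of the 48 genes by library shows that the shift with sgPHF8-3 was present in each replicate. The number of genes above the sgScr mean was 44 in sgPHF8-3 A, 47 in B and 46 in C. In the sgPHF8-1 libraries that number was 29, 30 and 24, and in the sgScr libraries 17, 19 and 33. The median log2 ratio over all genes tested lay between -0.0031 and 0.00094 in the 9 libraries.

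Taken by guide, 7 of the 48 genes were higher with both guides: CCNB1, AURKB, BIRC5, BUB3, KIF2C, CENPA and HMMR. Of these 7, BUB3 alone kept its sgPHF8-1 call in every fit that left out 1 library, BUB3 and CCNB1 kept it with DESeq2, and BUB3 and HMMR kept it with the length-trend offsets. None was called lower with both, and none was called in opposite directions. Of all genes tested, 6.72% were called higher with both guides, 7.48% lower with both and 0.103% in opposite directions, and both comparisons share the sgScr libraries. A further 22 were called with sgPHF8-3 only, all of them higher, and 9 were called with sgPHF8-1 only, all of them lower. The other 10 passed with neither guide. These counts stand beside 31.2% of all genes tested called with sgPHF8-1 and 20% with sgPHF8-3. The shares of all genes called with a single guide only, or with neither, were not counted. A call with a single guide does not show that the guides differ, and the direct test between them is given after the groups.

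**Figure D2:**
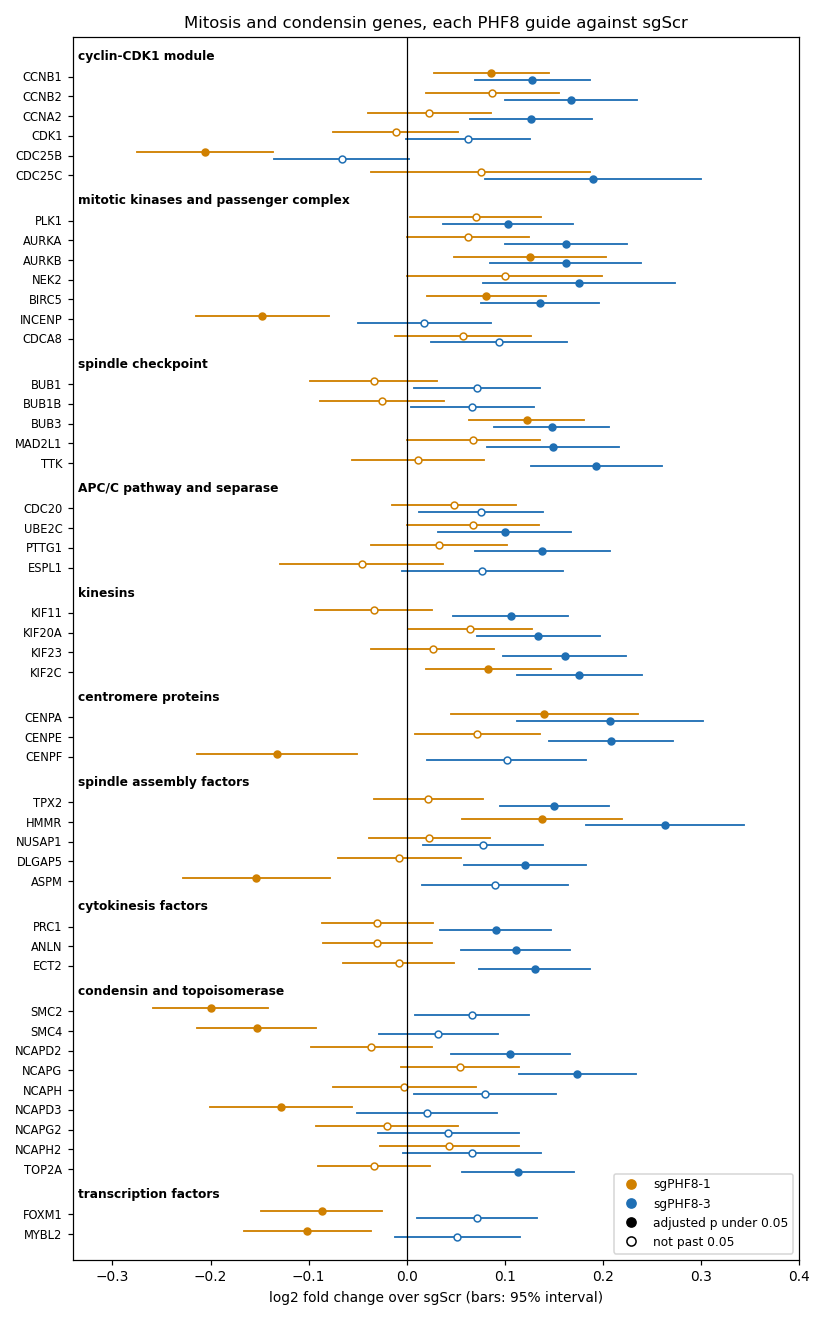
Points are log2 fold changes over sgScr for sgPHF8-1 (orange) and sgPHF8-3 (blue), bars are 95% intervals from the edgeR fit, and filled points passed an adjusted p of 0.05, with the 48 genes grouped by role. Of the sgPHF8-3 values, 47 lie to the right of 0, and of the sgPHF8-1 values, 26 do.

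The promoters of these genes share letters that were not used to choose them. Many genes expressed in G2 and mitosis carry a CHR element close to the start site together with CCAAT boxes further upstream. The RefSeq table of promoters on GRCh38.p14 held 300 bases, 250 before and 50 after the start site, for 40 of the 48 genes. AURKA, BIRC5, BUB3, FOXM1, NCAPH2, TPX2, TTK and UBE2C were not in that table. The CHR letters searched were TTTGAA and TTCGAA, on either strand, and they were present in 27 of the 40 (67.5%), beside 16.6% of 27305 promoters in the table and 11.5% of the 10533 whose gene was tested here. The letters CCAAT, on either strand, were in 28 of the 40 (70%), beside 35.7% and 37.2%. Both were in 21 of the 40 (52.5%), beside 6.58% and 4.92%.

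The 120 bases before the start site are given for 6 members on GRCh38.p14, with the CHR and CCAAT matches in capitals, to show the layout in HMMR, CCNB2 and PLK1, the same letters in the condensin genes NCAPG and SMC4, and a promoter with neither in CDC25B, the member that lay lowest with either guide. HMMR (chr5:163460512-163460631, plus strand) has 2 CHR matches end to end, CCNB2 (chr15:59105026-59105145, plus strand) has 3 CCAAT boxes at positions -120, -87 and -54 before a CHR at -29, and PLK1 (chr16:23678769-23678888, plus strand) has a CCAAT box at -73 and a CHR at -29. NCAPG (chr4:17810859-17810978, plus strand) has a CHR at -35, and SMC4 (chr3:160399530-160399649, plus strand) has it on the other strand at -75. The CDC25B window is chr20:3786831-3786950, plus strand. Positions are those of the first base of a match, counted back from the start site.
HMMR: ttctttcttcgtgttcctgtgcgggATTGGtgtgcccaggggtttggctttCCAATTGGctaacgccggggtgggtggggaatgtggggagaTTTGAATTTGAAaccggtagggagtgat
CCNB2: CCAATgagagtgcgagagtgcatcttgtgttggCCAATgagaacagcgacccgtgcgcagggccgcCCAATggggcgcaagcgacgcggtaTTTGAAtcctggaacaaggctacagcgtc
PLK1: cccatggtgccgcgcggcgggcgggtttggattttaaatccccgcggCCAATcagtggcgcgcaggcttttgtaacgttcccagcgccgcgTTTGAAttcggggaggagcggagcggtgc
NCAPG: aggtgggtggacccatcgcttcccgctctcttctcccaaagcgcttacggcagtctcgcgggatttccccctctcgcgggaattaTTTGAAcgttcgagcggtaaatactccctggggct
SMC4: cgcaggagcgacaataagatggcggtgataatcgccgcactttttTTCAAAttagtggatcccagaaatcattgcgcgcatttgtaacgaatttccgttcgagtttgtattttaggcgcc
CDC25B: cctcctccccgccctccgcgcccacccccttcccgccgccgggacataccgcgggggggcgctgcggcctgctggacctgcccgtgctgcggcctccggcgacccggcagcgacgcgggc

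Over the 40 genes with a listed promoter, the median change was no larger with a CHR match than without, and no test of this was made. With sgPHF8-3, the median log2 fold change was 0.10 over the 27 genes with a CHR and 0.13 over the 13 without. With sgPHF8-1, it was -0.020 with and 0.064 without. For CCAAT, the sgPHF8-3 medians were 0.11 over 28 genes with it and 0.067 over 12 without, and the sgPHF8-1 medians were 0.023 and -0.028. These are descriptions of the letters in these windows, and the data hold no measure of binding at these promoters.

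The cyclin B and CDK1 module was higher with sgPHF8-3 in 4 of its 6 genes, where 9.89% of all genes tested were. The counts called in each role group are to be read against the 31.2% of all genes tested that were called with sgPHF8-1 and the 20% with sgPHF8-3, and no role group was tested as a group. CCNB1, which encodes cyclin B1, the activator of CDK1 at mitotic entry, had normalized counts of 5960.1, 6026 and 6253 in sgScr, 6391, 6640 and 6339 in sgPHF8-1 and 6702, 6682 and 6552 in sgPHF8-3. All 6 libraries with a PHF8 guide were above the 3 sgScr libraries. Against sgScr, CCNB1 had a log2 fold change of 0.086 ± 0.030 for sgPHF8-1 (adjusted p = 0.0233) and 0.13 ± 0.030 for sgPHF8-3 (adjusted p = 0.00145). CCNB2, the other B-type cyclin, rose with sgPHF8-3 by 0.17 on the log2 scale (adjusted p = 0.000354) and stood at 0.087 with sgPHF8-1, just short of the threshold (adjusted p = 0.0509), which it passed without sgPHF8-1 C (0.0117) and sgPHF8-3 C (0.0428).

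CCNA2, cyclin A2, which acts in S phase and early mitosis, had normalized counts of 4085, 4035 and 4334 in sgScr, 4153, 4347 and 4159 in sgPHF8-1 and 4629, 4477 and 4495 in sgPHF8-3. The sgPHF8-1 libraries overlapped the control and the sgPHF8-3 libraries did not. CCNA2 rose with sgPHF8-3, with a log2 fold change of 0.13 (adjusted p = 0.00306), and was at 0.023 (adjusted p = 0.639) with sgPHF8-1. CDC25C, a phosphatase that activates CDK1, rose with sgPHF8-3 by 0.19 (adjusted p = 0.0125). CDK1, the kinase itself, passed with neither guide and had log2 fold changes of -0.011 and 0.062, with a 95% interval for sgPHF8-3 of -0.0010 to 0.13.

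CDC25B, the phosphatase that first activates CDK1 at the centrosome, went the other way. It had normalized counts of 1828, 1843 and 1833 in sgScr, 1596, 1551 and 1624 in sgPHF8-1 and 1723, 1724 and 1813 in sgPHF8-3. Every library of either PHF8 guide was below every sgScr library, and those of sgPHF8-1 were the lowest. CDC25B fell with sgPHF8-1, with a log2 fold change of -0.21 ± 0.036 (adjusted p = 1.26e-05), and was at -0.066 ± 0.035 with sgPHF8-3 (adjusted p = 0.19). In this module the sgPHF8-1 call of CCNB1 was lost without sgPHF8-1 B (0.059), sgScr A (0.157) and sgScr B (0.095), with the length-trend offsets (0.199) and with no filter on low counts (0.091), and the sgPHF8-3 call of CDC25C was lost without sgPHF8-3 B (0.137) and sgScr A (0.0967) and with DESeq2 (0.0716), with the adjusted p in parentheses. The length-trend offsets, which take out the trend of each library on transcript length, were added after the data had been seen.

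Among the 7 mitotic kinases and passenger proteins, 2 rose and 1 fell with sgPHF8-1, and 5 rose with sgPHF8-3, where 31.2% and 20% of all genes tested were called. AURKB, the kinase of the chromosomal passenger complex that corrects spindle attachments, had normalized counts of 1174, 1203 and 1242 in sgScr, 1347, 1299 and 1299.9 in sgPHF8-1 and 1377, 1356 and 1315 in sgPHF8-3. The libraries of both guides lay above the control. AURKB rose on the log2 scale by 0.13 (adjusted p = 0.0127) for sgPHF8-1 and 0.16 (adjusted p = 0.00227) for sgPHF8-3. BIRC5, which encodes survivin, the subunit that brings the passenger complex to centromeres, had counts of 3737, 3846 and 3741 in sgScr, 3949, 4129 and 3905 in sgPHF8-1 and 4221, 4104 and 4118 in sgPHF8-3 and rose by 0.081 (adjusted p = 0.0401) and 0.14 (adjusted p = 0.00111). The scaffold of the same complex, INCENP, did not follow them: it fell with sgPHF8-1 (log2 fold change -0.15, adjusted p = 0.000937) and was at 0.018 with sgPHF8-3 (adjusted p = 0.771). CDCA8, or borealin, passed with neither guide, at 0.057 and 0.094, except for sgPHF8-3 without sgPHF8-1 B (0.0335) and sgPHF8-3 C (0.0402) and fitted on the compared groups alone (0.0403).

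PLK1, the Polo-like kinase of spindle assembly, had normalized counts of 1906, 1887 and 1939 in sgScr, 1997, 1995 and 2026 in sgPHF8-1 and 2121, 2018 and 2017 in sgPHF8-3. All 6 libraries with a PHF8 guide were above the control, and the log2 fold change passed for sgPHF8-3, at 0.10 (adjusted p = 0.0252), but not for sgPHF8-1, at 0.070 (adjusted p = 0.115). AURKA, the kinase of the spindle poles, had counts of 3307, 3386 and 3476 in sgScr, 3584, 3602 and 3435 in sgPHF8-1 and 3848, 3835 and 3697 in sgPHF8-3. It rose with sgPHF8-3, with a log2 fold change of 0.16 (adjusted p = 0.00017), and was at 0.063 (adjusted p = 0.137) with sgPHF8-1, whose libraries overlapped the control. NEK2, a centrosome kinase, rose with sgPHF8-3 by 0.18 (adjusted p = 0.00936). The sgPHF8-1 call of AURKB was lost without sgPHF8-1 A (0.0802) and sgScr A (0.0903), with DESeq2 (0.0663) and with the length-trend offsets (0.151), and that of BIRC5 without sgPHF8-1 A (0.0639), sgPHF8-1 B (0.141), sgPHF8-3 A (0.0523), sgPHF8-3 B (0.0548), sgScr A (0.161) and sgScr C (0.125), with DESeq2 (0.0822), fitted on the compared groups alone (0.0553), with the length-trend offsets (0.125) and with no filter on low counts (0.161). The sgPHF8-3 call of PLK1 was lost without sgPHF8-3 A (0.168), sgScr A (0.0821) and sgScr B (0.102), with DESeq2 (0.0924) and with no filter on low counts (0.109), and that of NEK2 without sgPHF8-3 A (0.0712) and sgScr B (0.11) and with DESeq2 (0.056).

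Of the 5 spindle checkpoint genes, BUB3, MAD2L1 and TTK rose with sgPHF8-3 and BUB1 and BUB1B did not pass. BUB3, which carries the checkpoint kinases to kinetochores, had normalized counts of 5784, 6075 and 6001 in sgScr, 6488, 6661 and 6295 in sgPHF8-1 and 6596, 6618 and 6575 in sgPHF8-3. Both guides lay above the control without overlap. BUB3 had log2 fold changes of 0.12 ± 0.030 for sgPHF8-1 (adjusted p = 0.00138) and 0.15 ± 0.030 for sgPHF8-3 (adjusted p = 0.000284), and in each comparison with sgScr it stayed past 0.05 in all 9 fits that left out 1 library. TTK, the kinase that starts checkpoint signaling, rose with sgPHF8-3 by 0.19 (adjusted p = 3.63e-05) and was at 0.012 with sgPHF8-1. MAD2L1, which inhibits CDC20, rose with sgPHF8-3 by 0.15 (adjusted p = 0.00133), and passed for sgPHF8-1 with the length-trend offsets (adjusted p = 0.0105, or 0.14 without them).

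BUB1, a checkpoint kinase that marks centromeric chromatin, had normalized counts of 2671, 2647 and 2738 in sgScr, 2701, 2588 and 2579 in sgPHF8-1 and 2797, 2763 and 2909 in sgPHF8-3. Its log2 fold changes were -0.034 (adjusted p = 0.484) and 0.072 (adjusted p = 0.121). BUB1B, or BUBR1, was similar, at -0.026 and 0.067, with adjusted p-values of 0.602 and 0.143.

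In the anaphase-promoting complex (APC/C) pathway, none of 4 genes passed with sgPHF8-1, also not at an unadjusted p under 0.05, by DESeq2 or by limma, and UBE2C and PTTG1 rose with sgPHF8-3. UBE2C, the ubiquitin-conjugating enzyme of the APC/C, had the highest level per kilobase of the 48 genes and normalized counts of 3595, 3440.1 and 3655 in sgScr, 3681, 3949.6 and 3576 in sgPHF8-1 and 3826, 3955 and 3676 in sgPHF8-3. The sgPHF8-3 libraries were above the control and the sgPHF8-1 libraries overlapped it. Its log2 fold change was 0.10 (adjusted p = 0.0342) for sgPHF8-3 and 0.067 (adjusted p = 0.14) for sgPHF8-1. PTTG1, or securin, which blocks separase until anaphase, rose with sgPHF8-3 by 0.14 (adjusted p = 0.00359). CDC20, the activator of the APC/C in mitosis, was at 0.049 and 0.075, and ESPL1, separase, at -0.046 and 0.077. For sgPHF8-3, CDC20 passed without sgPHF8-1 B (0.0351) and sgPHF8-3 C (0.0331) and fitted on the compared groups alone (0.0457), and ESPL1 with the length-trend offsets (0.0463). The sgPHF8-3 call of UBE2C was lost without sgPHF8-3 A (0.0836), sgPHF8-3 B (0.224), sgScr A (0.0797) and sgScr B (0.216), with DESeq2 (0.0964) and with no filter on low counts (0.0763), and UBE2C passed for sgPHF8-1 without sgPHF8-1 C (0.0452).

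The 4 kinesins all rose with sgPHF8-3, with log2 fold changes from 0.11 for KIF11, the motor that slides spindle poles apart, to 0.18 for KIF2C, which depolymerizes microtubules at centromeres. KIF2C had normalized counts of 3269, 3452 and 3578 in sgScr, 3636, 3616 and 3658 in sgPHF8-1 and 3861, 3937 and 3838 in sgPHF8-3, all 6 libraries with a PHF8 guide being above the control. On the log2 scale KIF2C rose by 0.18 (adjusted p = 7.36e-05) for sgPHF8-3 and 0.083 (adjusted p = 0.0467) for sgPHF8-1. KIF20A and KIF23, the kinesins of the central spindle, rose by 0.13 and 0.16 with sgPHF8-3 and were at 0.064 and 0.026 with sgPHF8-1. The sgPHF8-1 call of KIF2C was near the threshold and was lost without sgPHF8-1 A (0.105), sgPHF8-1 C (0.103), sgPHF8-3 A (0.0582), sgPHF8-3 B (0.0623), sgScr A (0.398) and sgScr B (0.0905), with DESeq2 (0.102), with the other size factors (0.0504), fitted on the compared groups alone (0.0616), with the length-trend offsets (0.0735), with limma (0.0508) and with no filter on low counts (0.153). The sgPHF8-3 call of KIF11 was lost without sgPHF8-3 C (0.0642) and sgScr B (0.0534).

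Of the 3 centromere genes, 1 rose and 1 fell with sgPHF8-1, and 2 rose with sgPHF8-3, where 15.5% of all genes tested rose and 15.7% fell with sgPHF8-1 and 9.89% rose with sgPHF8-3. CENPA, the histone H3 variant that marks centromeres, had normalized counts of 721, 711 and 702 in sgScr, 756, 785 and 811 in sgPHF8-1 and 837, 789 and 837 in sgPHF8-3, with both guides above the control. CENPA rose by 0.14 (adjusted p = 0.024) on the log2 scale for sgPHF8-1 and 0.21 (adjusted p = 0.00149) for sgPHF8-3. CENPE, the kinesin that carries chromosomes to the spindle equator, had counts of 4065, 3857 and 3997 in sgScr, 4229, 4177 and 4124 in sgPHF8-1 and 4416, 4564 and 4798 in sgPHF8-3. It also lay above the control with both guides, but only sgPHF8-3 passed, at 0.21 (adjusted p = 4.3e-06), and sgPHF8-1 was at 0.072 (adjusted p = 0.0887).

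CENPF, a large kinetochore protein that accumulates in G2, had counts of 8814, 8579.7 and 9318 in sgScr, 8246, 7853 and 8269 in sgPHF8-1 and 8861, 10014 and 9799.5 in sgPHF8-3. The sgPHF8-1 libraries were below every control library, while the sgPHF8-3 libraries overlapped the control. CENPF fell with sgPHF8-1, at -0.13 (adjusted p = 0.0209), and was at 0.10 (adjusted p = 0.0953) with sgPHF8-3. The sgPHF8-1 call of CENPA was lost without sgPHF8-1 C (0.113), sgScr B (0.0624) and sgScr C (0.0788), with DESeq2 (0.109), with the length-trend offsets (0.152) and with no filter on low counts (0.063), and that of CENPF without sgPHF8-1 B (0.206) and sgScr C (0.0888) and with the length-trend offsets (0.58). With the length-trend offsets, CENPE passed for sgPHF8-1 too (adjusted p = 1.57e-05). For sgPHF8-3, CENPF passed in separate fits without sgPHF8-3 A (0.00126), without sgScr C (0.0255), with the length-trend offsets (0.00055) and with no filter on low counts (0.0359).

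Among the 5 spindle assembly factors, HMMR had the widest shift with sgPHF8-3 of all 48 genes. HMMR, a microtubule-binding partner of TPX2 at spindle poles, had normalized counts of 1251, 1258 and 1183 in sgScr, 1337, 1451 and 1279 in sgPHF8-1 and 1504, 1480 and 1448 in sgPHF8-3. The means were 1231 ± 41.5, 1356 ± 87.2 and 1478 ± 28 (SD, n = 3), and both guides lay above the control without overlap. Its log2 fold change was 0.26 ± 0.041 for sgPHF8-3 (adjusted p = 4.98e-06), an increase of 20%, and 0.14 ± 0.042 for sgPHF8-1 (adjusted p = 0.00919). TPX2, which activates AURKA on the spindle, rose with sgPHF8-3 by 0.15 (adjusted p = 0.000109), and DLGAP5, which bundles spindle fibers, rose by 0.12 (adjusted p = 0.00505). NUSAP1, which links microtubules to chromatin, passed with neither guide, at 0.023 and 0.078, except for sgPHF8-3 without sgPHF8-1 B (0.032) and sgPHF8-3 C (0.0383) and fitted on the compared groups alone (0.0397).

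ASPM, a spindle pole protein with the longest transcript of the 48 genes, had counts of 8951, 8991 and 9479 in sgScr, 8326, 7843 and 8483 in sgPHF8-1 and 9161, 9771 and 10267 in sgPHF8-3. The sgPHF8-1 libraries were below every control library and the sgPHF8-3 libraries overlapped the control. ASPM fell with sgPHF8-1, at -0.15 (adjusted p = 0.00331), and was at 0.090 (adjusted p = 0.101) with sgPHF8-3. With the length-trend offsets, ASPM did not pass for sgPHF8-1 (adjusted p = 0.281). For sgPHF8-3, ASPM passed in separate fits without sgPHF8-1 B (0.0434), without sgPHF8-3 A (0.00766) and with the length-trend offsets (0.000357). The sgPHF8-1 call of HMMR was lost without sgPHF8-1 B (0.102) and sgScr C (0.0775) and with DESeq2 (0.0525), and the sgPHF8-3 call of DLGAP5 was lost without sgPHF8-3 B (0.0566).

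The 3 cytokinesis factors were called with sgPHF8-3 and not with sgPHF8-1. PRC1, which bundles the midzone microtubules between separating chromosomes, had counts of 7308, 7218 and 7236 in sgScr, 7047, 7243 and 7026 in sgPHF8-1 and 7776, 7859 and 7542 in sgPHF8-3, the sgPHF8-3 libraries lying above the control. Its log2 fold change was 0.091 (adjusted p = 0.0206) for sgPHF8-3 and -0.030 (adjusted p = 0.47) for sgPHF8-1. ANLN, or anillin, and ECT2, the exchange factor that starts the contractile ring, rose with sgPHF8-3 by 0.11 and 0.13, and were at -0.030 and -0.0083 with sgPHF8-1. The sgPHF8-3 call of PRC1 was lost without sgPHF8-3 A (0.0727), sgPHF8-3 B (0.122), sgScr A (0.0607), sgScr B (0.0873) and sgScr C (0.0712) and with no filter on low counts (0.0947).

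The condensin subunits included SMC2, which of the 48 genes had the widest difference between the guides. With sgPHF8-1, 3 of the 8 subunits fell and 0 rose, also 0 at an unadjusted p under 0.05, by DESeq2 and by limma, and the 3 were SMC2, SMC4 and NCAPD3, where 31.2% of all genes tested were called. With sgPHF8-3, 2 rose and 0 fell, again 0 at an unadjusted p under 0.05, by DESeq2 and by limma, and the 2 were NCAPG and NCAPD2, both of condensin I, where 20% of all genes tested were called. Counts over 8 genes near these shares say little about the group, and the subunits are described one by one. The median log2 fold change of the 8 subunits was -0.028 for sgPHF8-1 and 0.067 for sgPHF8-3.

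SMC2 (chr9:106856541-106903700, GRCh37), an ATPase of the core of both complexes, had normalized counts of 5596, 5429 and 5654 in sgScr, 4775, 4975 and 4774 in sgPHF8-1 and 5879.5, 5839 and 5749.7 in sgPHF8-3. The 3 groups did not overlap: sgPHF8-1 was lowest, sgScr lay between, and sgPHF8-3 was highest. SMC2 fell with sgPHF8-1, with a log2 fold change of -0.20 ± 0.030 (adjusted p = 9.7e-07), a change of -12.9%, and was at 0.067 ± 0.030 with sgPHF8-3 (adjusted p = 0.11). The sgPHF8-1 call held in all 9 fits that left out 1 library and with the length-trend offsets (adjusted p = 4.13e-05). For sgPHF8-3, SMC2 passed without sgPHF8-1 B (adjusted p = 0.0481) and with the length-trend offsets (adjusted p = 0.0196).

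SMC4 (chr3:160117062-160152742), the partner ATPase and the condensin gene with the highest level per kilobase, had counts of 11189, 11047 and 11086 in sgScr, 10297, 9824 and 9849.8 in sgPHF8-1 and 10852, 11375 and 11852 in sgPHF8-3. The sgPHF8-1 libraries lay below every control library, and the sgPHF8-3 libraries, which were the most spread, overlapped the control. SMC4 fell with sgPHF8-1, at -0.15 ± 0.031 (adjusted p = 0.00014), and was at 0.032 ± 0.031 with sgPHF8-3 (adjusted p = 0.518). The sgPHF8-1 call held in all 9 fits that left out 1 library and with the length-trend offsets (adjusted p = 0.000843).

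Of the condensin I subunits, NCAPG (chr4:17812602-17846488) had counts of 3302, 3323 and 3278 in sgScr, 3392, 3386 and 3504 in sgPHF8-1 and 3748, 3713 and 3712 in sgPHF8-3. The sgPHF8-3 libraries were above all others. NCAPG rose with sgPHF8-3, with a log2 fold change of 0.17 ± 0.031 (adjusted p = 3.63e-05), and was at 0.054 ± 0.031 with sgPHF8-1 (adjusted p = 0.189, or 0.0342 with the length-trend offsets). NCAPD2 (chr12:6602522-6641121) had counts of 5272, 5544 and 5699 in sgScr, 5328, 5341 and 5439.5 in sgPHF8-1 and 5786, 6048 and 5939 in sgPHF8-3, and it rose with sgPHF8-3 at 0.11 ± 0.031 (adjusted p = 0.0123), a call that was lost without sgPHF8-3 B (0.0927) and sgScr A (0.167). NCAPH (chr2:97001504-97042829), the subunit that closes the ring, had counts of 1599, 1684 and 1721 in sgScr, 1659, 1658 and 1679 in sgPHF8-1 and 1841, 1737 and 1708 in sgPHF8-3 and passed with neither guide, at -0.0024 (adjusted p = 0.971) and 0.080 (adjusted p = 0.126). With the length-trend offsets, NCAPH passed for sgPHF8-3 (adjusted p = 0.0355).

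Of the condensin II subunits, NCAPD3 (chr11:134020008-134095398) had counts of 1554, 1622 and 1595 in sgScr, 1464, 1429 and 1470.4 in sgPHF8-1 and 1595, 1672 and 1572 in sgPHF8-3. The sgPHF8-1 libraries were below every control library and the sgPHF8-3 libraries overlapped the control. NCAPD3 fell with sgPHF8-1, at -0.13 ± 0.037 (adjusted p = 0.00637), and this call was lost with the length-trend offsets (adjusted p = 0.277). NCAPG2 (chr7:158423861-158497495) had counts of 1545, 1496 and 1532 in sgScr, 1541, 1514 and 1454 in sgPHF8-1 and 1586, 1530.3 and 1595 in sgPHF8-3, overlapping across the groups, with log2 fold changes of -0.020 (adjusted p = 0.734) and 0.042 (adjusted p = 0.461). NCAPH2 (chr22:50946653-50963209) had counts of 1492, 1532 and 1474 in sgScr, 1512, 1553 and 1572 in sgPHF8-1 and 1569, 1588 and 1555 in sgPHF8-3 and log2 fold changes of 0.043 (adjusted p = 0.399) and 0.066 (adjusted p = 0.199). The 95% intervals of NCAPH2 were -0.028 to 0.11 and -0.0039 to 0.14. TOP2A, the topoisomerase that untangles chromosomes beside condensin, rose with sgPHF8-3 by 0.11 (adjusted p = 0.00405, or 0.0633 without sgScr A) and was at -0.033 with sgPHF8-1.

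**Figure D3:**
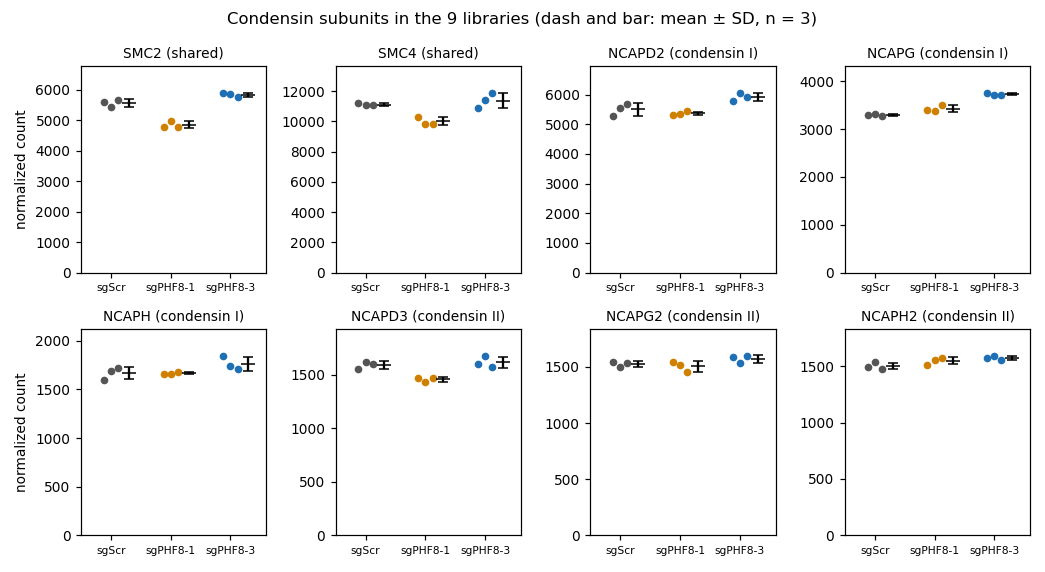
Normalized counts of the 8 condensin subunits in each library, 1 panel per gene with the axis starting at 0, where points are libraries and the dash with its bar is the mean ± SD of 3. SMC2 shows 3 separate groups, sgPHF8-1 lying lowest, and NCAPG is highest in the sgPHF8-3 libraries.

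Some condensin genes share exon sequence with neighbors, and the strand setting of the counting is not given in the sources used here. On the opposite strand, the exons of NCAPD3 overlapped those of JAM3 by 1889 bases, those of NCAPG overlapped LCORL by 1634 bases and those of SMC4 overlapped TRIM59 by 1552 bases. TRIM59 was listed at 3 to 9 reads, while JAM3 had 865 to 1008 and LCORL 528 to 694. NCAPH2 shared 855 bases with a long noncoding RNA on its own strand, which had 54 to 103 reads. Without strand, reads in such stretches cannot be told apart.

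FOXM1 and MYBL2, the transcription factors that activate G2 and mitotic genes, both fell with sgPHF8-1 and did not pass with sgPHF8-3. FOXM1 had log2 fold changes of -0.087 (adjusted p = 0.0311) and 0.072 (adjusted p = 0.1), and MYBL2, or B-Myb, of -0.10 (adjusted p = 0.0156) and 0.051 (adjusted p = 0.287). For both genes the sgPHF8-1 libraries were wholly below, and the sgPHF8-3 libraries wholly above, the 3 control libraries. The sgPHF8-1 call of FOXM1 was lost without sgPHF8-1 A (0.119), sgPHF8-1 C (0.11), sgScr A (0.0749), sgScr B (0.0813) and sgScr C (0.0835), with DESeq2 (0.0735) and with no filter on low counts (0.0562), and that of MYBL2 without sgPHF8-1 A (0.145) and sgScr B (0.0666) and with DESeq2 (0.0574).

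The direct test between the guides, in which sgScr does not enter the contrast, found 26 of the 48 genes higher with sgPHF8-3 than with sgPHF8-1 and 0 lower, where 6.06% of all genes tested were higher and 5.11% lower (11.2% in either direction). At an unadjusted p under 0.05, 35 were higher and 0 lower, DESeq2 called 21 and 0, and limma called 25 and 0. The shares of all genes given above belong to the main test, and those under these other criteria are not given here. The median log2 difference was 0.11, beside -0.0006 over all genes tested. The libraries of the guides did not overlap for 29 genes, all with sgPHF8-3 above, where 13% of all genes lay above and 12.4% below.

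Among the 48 genes, the widest differences were in SMC2, ASPM and CENPF. For SMC2 the log2 difference between sgPHF8-3 and sgPHF8-1 was 0.27 ± 0.030 (adjusted p = 1.86e-08), with means of 5823 ± 66.4 and 4841 ± 116 (SD, n = 3). For ASPM it was 0.24 ± 0.038 (adjusted p = 0.000121), and for CENPF 0.23 ± 0.042 (adjusted p = 0.001). The smallest differences past the threshold were those of AURKA, at 0.10 (adjusted p = 0.0327), CCNA2, at 0.10 (adjusted p = 0.026), and BUB1, at 0.11 (adjusted p = 0.0302). In the condensin complexes, 5 of the 8 subunits differed, SMC2 with SMC4 (0.19), NCAPD3 (0.15), NCAPD2 (0.14) and NCAPG (0.12), while NCAPH, NCAPG2 and NCAPH2 had differences of 0.082, 0.063 and 0.023 that did not pass. FOXM1 and MYBL2 differed by 0.16 and 0.15, with adjusted p-values of 0.000469 and 0.00129.

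Of the 7 genes higher with both guides, HMMR differed between them, by 0.13 (adjusted p = 0.039), and the others did not pass: the differences were 0.042 for CCNB1 (95% interval -0.017 to 0.10), 0.037 for AURKB (-0.040 to 0.11), 0.055 for BIRC5 (-0.0058 to 0.12), 0.026 for BUB3 (-0.033 to 0.084), 0.093 for KIF2C (0.029 to 0.16) and 0.067 for CENPA (-0.028 to 0.16). For CDC25B, low with either guide, the difference was 0.14 (adjusted p = 0.00742), or 0.0633 without sgPHF8-3 C. The call of AURKA was lost without sgPHF8-1 A (0.056), sgPHF8-1 C (0.139), sgPHF8-3 A (0.098) and sgPHF8-3 B (0.139), with DESeq2 (0.0686), fitted on the compared groups alone (0.0602) and with no filter on low counts (0.0784). That of CCNA2 was lost without sgPHF8-1 A (0.117), sgPHF8-1 C (0.0773), sgPHF8-3 A (0.0994) and sgPHF8-3 B (0.0605), with DESeq2 (0.053) and with no filter (0.0509). That of BUB1 was lost without sgPHF8-1 B (0.0696), sgPHF8-1 C (0.0924) and sgPHF8-3 C (0.176), with DESeq2 (0.077), on the compared groups alone (0.0554) and with no filter (0.0712). That of HMMR was lost without sgPHF8-1 A (0.131), sgPHF8-1 C (0.224), sgPHF8-3 A (0.107) and sgPHF8-3 B (0.114), with DESeq2 (0.143), with limma (0.0521), on the compared groups alone (0.0576) and with no filter (0.0591). The call of NCAPD3 was lost without sgPHF8-3 B (0.0718) and with the length-trend offsets (0.0536), and those of CENPE without sgPHF8-3 C (0.053) and with the length-trend offsets (0.0545), DLGAP5 without sgPHF8-3 B (0.0648) and KIF23 without sgPHF8-3 B (0.0608). That of PTTG1 was lost without sgPHF8-1 A (0.125), sgPHF8-1 C (0.222), sgPHF8-3 A (0.165), sgPHF8-3 B (0.203), sgScr A (0.0557), sgScr B (0.0582) and sgScr C (0.0607), with DESeq2 (0.122), with limma (0.0593), on the compared groups alone (0.0752) and with no filter (0.0667). CDK1, BUB1B, MAD2L1, ESPL1, CCNB2 and KIF2C did not pass. Of these, CDK1 passed without sgPHF8-1 B (0.0491) and with the length-trend offsets (0.0212), BUB1B without sgPHF8-1 A (0.0471), MAD2L1 without sgPHF8-1 B (0.0212), ESPL1 without sgPHF8-1 C (0.00334), with the other size factors (0.0488), with limma (0.0488) and with no filter (0.0465), and CCNB2 and KIF2C with the length-trend offsets (0.0186 for each).

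Combined as the mean of both guides against sgScr, 22 of the 48 genes were higher and 2 lower, where 15.1% and 14.9% of all genes tested were (30% in either direction). The 2 lower were CDC25B (log2 fold change -0.14 (adjusted p = 0.00053)) and SMC2 (-0.067 (adjusted p = 0.0444)). HMMR was highest, at 0.20 (adjusted p = 2.4e-05). The median log2 fold change was 0.062, beside -0.0019 over all genes tested. Since SMC2 stood on opposite sides of the control with the 2 guides, its mean is the average of a fall and of a value above 0, and the call was lost without sgPHF8-1 A (0.0967), sgPHF8-1 C (0.0686), sgPHF8-3 B (0.0759), sgPHF8-3 C (0.0715), sgScr A (0.145) and sgScr C (0.224), with DESeq2 (0.0693), with limma (0.0578), with no filter on low counts (0.0725) and with the length-trend offsets (0.384).

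Transcript length moved with these changes. Over the 48 genes, the Spearman correlation of canonical transcript length with log2 fold change was -0.556 for sgPHF8-1, -0.259 for sgPHF8-3 and 0.566 for the difference between guides. Over 13961 genes with a length it was -0.217, -0.102 and 0.209. These are correlations across genes, which share libraries and are not independent replicates. The 7 genes that rose with sgPHF8-1 had a median length of 2574 bp and the 9 that fell had 5116 bp.

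Split at their median of 3228 bp, the shorter 24 genes had a median log2 fold change of 0.063 with sgPHF8-1, beside 0.039 for all genes of such length, and the longer 24 had -0.032, beside -0.038. With sgPHF8-3 the shorter had 0.13, beside 0.015, and the longer had 0.096, beside -0.014. With offsets that took out each library's length trend, 5 rose and 6 fell with sgPHF8-1, 34 rose and 0 fell with sgPHF8-3, and 27 were higher with sgPHF8-3 than with sgPHF8-1 and 0 lower. SMC2 and SMC4 remained among the genes that fell with sgPHF8-1 under these offsets, while ASPM, CENPF and NCAPD3 did not. Beyond these values, the part of length in the result was not tested.

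**Figure D4:**
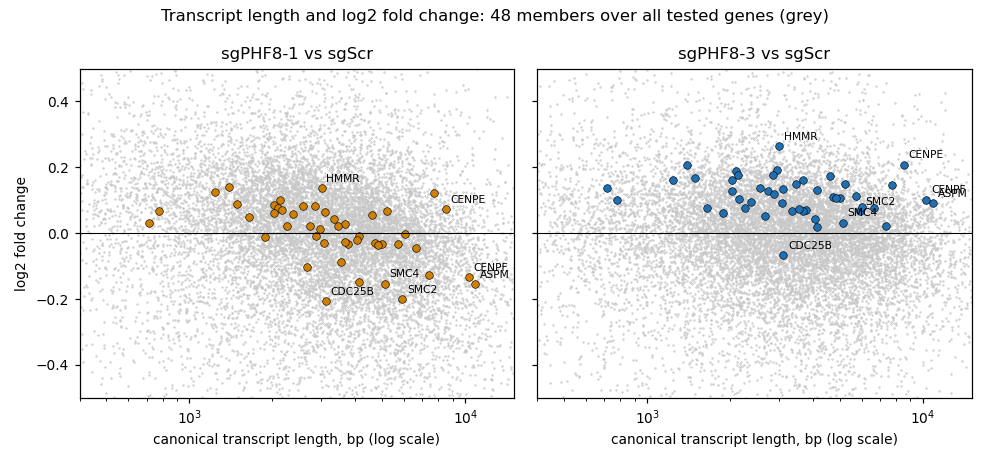
Log2 fold change over sgScr against canonical transcript length in bp on a log axis, for sgPHF8-1 (left) and sgPHF8-3 (right), with the 48 genes in color over all tested genes with a length in grey. Genes past ±0.5 or outside the plotted lengths are not drawn. The sgPHF8-1 points fall with length, CENPF, ASPM, SMC4 and SMC2 lying low, and the sgPHF8-3 points lie above 0 at short and long lengths alike, CDC25B excepted.

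In the control cells, the level per kilobase of canonical transcript spread widely over the 48 genes. On this scale, the mean normalized count in sgScr was 4586 for UBE2C, 3842 for PTTG1 and 2996 for CCNB1, the 3 highest. Among condensin subunits the order was SMC4 at 2171, NCAPD2 at 1141, SMC2 at 938, NCAPG at 719.6, NCAPH2 at 449, NCAPG2 at 377, NCAPH at 277 and NCAPD3 at 216. The shared core subunits thus lay with the condensin I subunit NCAPD2 at the top, and NCAPD3 was the lowest. The coefficient of variation over the sgScr libraries was at most 5.63% for any of the 48 genes, and neighbors in the order of the condensin subunits were further apart than the SD of the sgScr libraries.

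Further genes of mitosis, cohesin and the cell cycle were read from lists fixed with the 48. Of 46 other mitotic genes, 24 rose and 0 fell with sgPHF8-3, where 9.89% of all genes tested rose, at a median log2 fold change of 0.11, and 32 were higher and 0 lower at an unadjusted p under 0.05, while DESeq2 called 17 and limma 23 higher and 0 lower. With sgPHF8-3, DESeq2 called 14.1% and limma 18.8% of all genes in either direction. With sgPHF8-1, 4 of the 46 rose and 7 fell, where 31.2% of all genes tested were called. Between the guides, 24 were higher and 0 lower with sgPHF8-3, also 0 lower at an unadjusted p under 0.05, by DESeq2 and by limma, where 6.06% of all genes tested were higher and 5.11% lower. MKI67, which encodes the proliferation marker Ki-67, had the widest shift of this list between the guides and is named after its values were seen. MKI67 had normalized counts of 7111, 6742 and 6636 in sgScr, 5113, 4769 and 5541 in sgPHF8-1 and 5683, 6464 and 7544 in sgPHF8-3. It fell with sgPHF8-1, at -0.41 ± 0.11 (adjusted p = 0.0356), and was at -0.058 ± 0.11 with sgPHF8-3 (adjusted p = 0.782), with a difference between the guides of 0.35 (adjusted p = 0.116), which passed without sgPHF8-3 A (0.0376) and with DESeq2 (0.0246). The MKI67 call was lost without sgPHF8-1 A (0.0973), sgPHF8-1 B (0.107), sgPHF8-3 B (0.0617), sgScr A (0.103), sgScr B (0.0874) and sgScr C (0.0788), with the length-trend offsets (0.0535) and with no filter (0.0747). MELK, a mitotic kinase, CENPK, a kinetochore subunit, and FAM83D, a spindle protein, rose with both guides, with log2 fold changes of 0.11 and 0.19, 0.13 and 0.16, and 0.11 and 0.16 for sgPHF8-1 and sgPHF8-3. MELK lost its sgPHF8-1 call with DESeq2 (0.0518), with the length-trend offsets (0.0523) and with no filter (0.0575), and FAM83D without sgPHF8-1 A (0.0552) and sgScr B (0.104), with DESeq2 (0.0819), with the length-trend offsets (0.0862) and with no filter (0.0785). CENPK lost its sgPHF8-1 call without sgPHF8-1 A (0.187), sgPHF8-1 B (0.085), sgPHF8-3 A (0.0515), sgPHF8-3 B (0.0536), sgScr A (0.0516), sgScr B (0.238) and sgScr C (0.0576), with DESeq2 (0.165), on the compared groups alone (0.0514), with the length-trend offsets (0.179) and with no filter (0.104), and its sgPHF8-3 call without sgPHF8-3 A (0.081), sgPHF8-3 B (0.115) and sgScr B (0.173), with DESeq2 (0.117) and with no filter (0.0547).

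In the further lists, counts are to be read against the 31.2% of all genes tested that were called with sgPHF8-1 and the 20% with sgPHF8-3. Of 13 cohesin genes, whose ring holds sister chromatids together, 1 rose and 4 fell with sgPHF8-1, and 3 rose and 1 fell with sgPHF8-3. SMC1A, an ATPase of the cohesin ring, was lower with both guides, at -0.31 and -0.12 (the latter lost without sgPHF8-3 A (0.107), sgPHF8-3 B (0.0592), sgScr A (0.11) and sgScr B (0.0787), with DESeq2 (0.0697) and with the length-trend offsets (0.0993)), and CDCA5, or sororin, was higher with both, at 0.15 and 0.21. Of 17 genes of the APC/C, which besides subunits included FZR1, FBXO5 and UBE2S, 3 rose and 2 fell with sgPHF8-1, and 4 rose and 0 fell with sgPHF8-3. With sgPHF8-3, 2 were lower at an unadjusted p under 0.05 and neither DESeq2 nor limma called any lower. ANAPC13 was higher with both, at 0.25 and 0.20.

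Of 14 genes of the DREAM and MuvB complexes and of NF-Y, which bind CHR and CCAAT letters, 1 rose and 4 fell with sgPHF8-1, and 3 rose and 3 fell with sgPHF8-3. RBL2, the p130 pocket protein of DREAM, and RBBP4 were lower with both guides, at -0.27 and -0.19, and at -0.18 and -0.11, while TFDP1, the partner of E2F factors, was higher with both, at 0.16 and 0.16. RBBP4 lost its sgPHF8-3 call without sgPHF8-3 B (0.0664) and sgScr B (0.0588) and with the length-trend offsets (0.0548).

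Of 12 regulators of mitotic entry, 5 rose and 3 fell with sgPHF8-1, and 4 rose and 1 fell with sgPHF8-3. CDKN1A, or p21, an inhibitor of cyclin-dependent kinases, moved in opposite directions with the guides and by more between them than any of the 48 genes, and is named after its values were seen. CDKN1A had normalized counts of 4204, 4339.96 and 4350.2 in sgScr, 5233, 5597 and 5328 in sgPHF8-1 and 3861, 3751 and 3604 in sgPHF8-3. The 3 groups did not overlap: sgPHF8-1 was highest, sgScr lay between, and sgPHF8-3 was lowest. CDKN1A rose with sgPHF8-1, with a log2 fold change of 0.32 ± 0.032 (adjusted p = 4.38e-11), and fell with sgPHF8-3, at -0.20 ± 0.032 (adjusted p = 8.19e-06), and the difference of sgPHF8-3 from sgPHF8-1 was -0.53 ± 0.032 (adjusted p = 5.76e-16). Its part in the changes of the mitotic genes was not tested. GADD45A, a stress-induced inhibitor of CDK1, rose with both guides and by more than any of the 48 genes, at 0.40 and 0.55. CDC25A, the phosphatase shared by S phase and mitosis, rose by 0.25 and 0.27, and CCNF, cyclin F, by 0.14 and 0.13. Of 26 S phase genes, 3 rose and 5 fell with sgPHF8-1, and 8 rose and 0 fell with sgPHF8-3, also 0 at an unadjusted p under 0.05, by DESeq2 and by limma. ORC1, GINS3 and RRM2 rose with both guides, by 0.12, 0.13 and 0.13 with sgPHF8-1 and by 0.23, 0.19 and 0.12 with sgPHF8-3. E2F1, an activator of S phase genes in this list, fell with sgPHF8-1, at -0.11 (adjusted p = 0.019, lost without sgPHF8-1 A (0.0639), sgScr A (0.0691) and sgScr B (0.0537) and with DESeq2 (0.0816)), and was at 0.017 (adjusted p = 0.793) with sgPHF8-3. From its own analysis of RNA-seq in SKMEL-147, and from further melanoma lines, the study concluded that PHF8 does not regulate E2F1 transcription in melanoma. E2F2, a related activator named after its values were seen, had counts of 373, 381 and 403.5 in sgScr, 333, 313 and 314 in sgPHF8-1 and 420.4, 414 and 384 in sgPHF8-3, and fell with sgPHF8-1, at -0.27 (adjusted p = 0.00187), with a difference between the guides of 0.34 (adjusted p = 0.000447). For sgPHF8-1, the ORC1 call was lost without sgPHF8-1 A (0.109), sgPHF8-1 B (0.0802), sgScr A (0.0677) and sgScr C (0.0979), with DESeq2 (0.0969) and with no filter (0.0686), and that of GINS3 without sgPHF8-1 B (0.0565), sgPHF8-1 C (0.148) and sgScr B (0.144), with DESeq2 (0.115), with the length-trend offsets (0.1) and with no filter (0.0623). The CCNF calls were lost without sgScr A (0.0512 for sgPHF8-1 and 0.095 for sgPHF8-3), and for sgPHF8-3 also without sgPHF8-3 B (0.136).

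Of 5 enzymes that set or remove histone methylation at H4K20 or are related to PHF8, 1 rose and 2 fell with sgPHF8-1, and 1 rose and 1 fell with sgPHF8-3. PHF2, a demethylase of the same family as PHF8, had the widest change of the 5 and is named after its values were seen. PHF2 had normalized counts of 1333, 1446 and 1429.8 in sgScr, 717, 726 and 783 in sgPHF8-1 and 1419.9, 1373 and 1327 in sgPHF8-3. The sgPHF8-1 libraries lay far below all others, and the sgPHF8-3 libraries overlapped the control. PHF2 fell with sgPHF8-1, with a log2 fold change of -0.92 ± 0.045 (adjusted p = 4.55e-20), a change of -47.1%, and was at -0.030 ± 0.041 with sgPHF8-3 (adjusted p = 0.67). Between the guides PHF2 differed by 0.89 ± 0.046 (adjusted p = 2.83e-18). The part of PHF2 in the other changes with sgPHF8-1 was not tested. KMT5A, which adds the first methyl group, rose with both guides, at 0.16 (adjusted p = 0.00234) for sgPHF8-1 and 0.25 (adjusted p = 1.42e-05) for sgPHF8-3. KMT5C, which adds further methyl groups, fell with both, at -0.33 (adjusted p = 0.0133) and -0.33 (adjusted p = 0.0224). KMT5C lost its sgPHF8-1 call without sgPHF8-1 B (0.0931) and sgScr C (0.0607) and with DESeq2 (0.09), and its sgPHF8-3 call without sgPHF8-3 A (0.0815), sgPHF8-3 C (0.0541), sgScr A (0.0542) and sgScr C (0.0916) and with DESeq2 (0.127).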

How the data were processed

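RNA was sequenced from 9 libraries of SKMEL-147 cells, 3 for each of sgScr, sgPHF8-1 and sgPHF8-3. According to the study's methods, the RNA was depleted of ribosomal RNA, made into ScriptSeq libraries, sequenced in paired ends and aligned to hg19 with STAR, and reads were counted per gene, with HTSeq named in the submitters' processing notes. The deposited count table holds whole raw read counts made by the authors for 57736 genes. The authors' normalized table holds the same counts divided by a size factor per library (a signal with no fixed unit): with that factor restored, 100% of its values came out whole within 0.01 reads. "Normalized count" in the text is this deposited value. Gene rows were joined across both tables by symbol and by their counts, and all 48 genes had identical counts in both. The 48 genes, the role groups and the further lists were chosen with earlier results of these data known.

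Raw counts of 14614 genes that passed filterByExpr (edgeR 4.0.16 in R 4.3.3, minimum count 10) were fitted with TMM scaling and edgeR's quasi-likelihood test, all 9 libraries in 1 fit by group, with Benjamini-Hochberg adjustment over all genes tested and a threshold of 0.05. The common biological coefficient of variation was 2.87%. Replicates differed by more than sampling noise (chi-square per degree of freedom 1.31 to 3.87), so that none was taken for the same library sequenced again. Separate preparations from a single culture would differ too, so these values do not show that the cultures were separate. Fold changes are log2, ± is SE unless SD is named, and 95% intervals use the normal scale of the SE. The fit was tested on simulated data. Alternatives were DESeq2 1.42.0, limma 3.58.1 on log2(normalized count + 1), other size factors, no filter, the compared groups alone, each library left out, a replicate block, an adjusted p of 0.15, an absolute log2 fold change above 0.25, and, added after the data had been seen, length-trend offsets.

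Values in every library are given for PHF8, the 8 condensin subunits, members called the same way with both guides, and the 3 highest and 3 lowest log2 fold changes among members called in each guide comparison, and other members are given by fold change. From each further list, at most 4 genes called the same way with both guides are named, with E2F1 and KMT5A, and PHF2, CDKN1A, CHEK2, E2F2 and MKI67, chosen after their values were seen for their size between the guides. Gene coordinates and canonical transcript lengths are from GENCODE on GRCh37, the build of the files, and promoters are from RefSeq on GRCh38.p14. Guide RNA sequences are not given here.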

Additional observations from a re-analysis of the deposited data

Results flagged for a closer look

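The effects of the guides on 26 of the 48 genes, on PHF8 itself and on 8 named genes of the further lists differed by the direct test between sgPHF8-3 and sgPHF8-1, and these values are the log2 differences, positive where sgPHF8-3 was higher. Among the condensin subunits and topoisomerase, the difference was 0.27 for SMC2, 0.19 for SMC4, 0.15 for NCAPD3, 0.14 for NCAPD2, 0.12 for NCAPG and 0.15 for TOP2A. In the spindle assembly factors, the difference was 0.24 for ASPM, 0.13 for TPX2, 0.13 for DLGAP5 and 0.13 for HMMR. For the centromere proteins and kinesins, the difference was 0.23 for CENPF, 0.14 for CENPE, 0.14 for KIF11 and 0.13 for KIF23. Among the cytokinesis factors, the difference was 0.14 for ANLN, 0.14 for ECT2 and 0.12 for PRC1. For the kinases and passenger and checkpoint proteins, the difference was 0.18 for TTK, 0.17 for INCENP, 0.11 for BUB1 and 0.10 for AURKA. In the cyclin-CDK1 module and securin, the difference was 0.14 for CDC25B, 0.11 for PTTG1 and 0.10 for CCNA2. For the transcription factors, the difference was 0.16 for FOXM1 and 0.15 for MYBL2. For PHF8 it was -0.48. With a single pair of guides, every gene that differs between them lines up with PHF8 or against it. A relation between the PHF8 counts and those of the 26 genes was not tested. Of the further genes, the difference was 0.89 for PHF2, -0.53 for CDKN1A, 0.34 for E2F2, 0.29 for CHEK2, 0.19 for SMC1A, 0.15 for GADD45A, 0.12 for E2F1 and 0.12 for ORC1, and that of ORC1 (adjusted p = 0.0493) was lost in all 9 fits that left out 1 library but the one without sgPHF8-1 B, and with DESeq2 (0.161), the other size factors (0.0507), the compared groups alone (0.0748), limma (0.0592) and no filter (0.105). That of CHEK2, a checkpoint kinase (adjusted p = 0.0314), was lost without sgPHF8-1 B (0.0648), sgPHF8-1 C (0.0872), sgPHF8-3 A (0.0755), sgPHF8-3 B (0.0648) and sgPHF8-3 C (0.0817) and with DESeq2 (0.133). The E2F1 difference (adjusted p = 0.0185) was lost without sgPHF8-1 A (0.069), sgPHF8-3 A (0.0952) and sgPHF8-3 B (0.105) and with DESeq2 (0.0724). Single libraries were not screened for extreme values, as the groups held 3 each.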

How the results depend on the processing

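The 29 genes that rose with sgPHF8-3 and the 26 that were higher between the guides kept their direction in every alternative run. The count of 29 was 23 without sgScr A, 24 without sgScr B or sgPHF8-3 B, 25 with DESeq2 and 34 without sgPHF8-1 B. Between the guides, the count of 26 was 19 without sgPHF8-3 B, 21 with DESeq2 and 27 without sgPHF8-1 B. The smaller counts moved as well. The count of genes that rose with sgPHF8-1, 7 in the report, was 3 with no filter on low counts, 2 with DESeq2, 15 at an adjusted p of 0.15, and 3 to 8 when 1 library was left out. The count of genes lower in the mean of both guides, 2 in the report, was 1 with no filter, with a replicate block, with the length-trend offsets, with DESeq2 and with limma, 4 at an adjusted p of 0.15, and 1 to 2 when 1 library was left out. An absolute log2 fold change above 0.25 left 0 genes higher and 0 lower with sgPHF8-1, 1 higher with sgPHF8-3, 0 higher and 0 lower for both guides, and 1 higher between the guides. The median log2 fold change with sgPHF8-3, 0.1085, was 0.1013 with no filter, 0.1185 with the length-trend offsets, and 0.1039 to 0.1284 when 1 library was left out. The cause of these moves was not tested, other than that no filter and a size threshold change what is tested or called. Of all genes tested, 11.2% were called between the guides, but 6.86% without sgPHF8-3 B and 7.08% without sgPHF8-3 C. With no filter, the share of genes called was 12.9% for sgPHF8-1, 8.09% for sgPHF8-3, 12.3% for both and 4.57% between the guides, over a larger number of genes. At 0.15 it was 31.2% for sgPHF8-3 and 20.1% between the guides. With the size threshold it was 12.4%, 6.61%, 9.38% and 3.09%. Values under alternatives were counted for PHF8, the members given in every library and the named genes of the further lists. Members given by fold change alone were not part of this count. Of these 3087 values, 2836 kept their side of the threshold, 228 lost the call and 23 gained it. The sign changed in 23 values, none of them called in the report or under the alternative.

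Replicate letters did not pair the libraries: deviations of libraries with the same letter correlated between -0.173 and 0.108 over 11543 genes, and sgPHF8-1 B correlated best with sgPHF8-3 A (0.261). With the letter as a replicate block, the calls were 7 higher and 9 lower with sgPHF8-1, 31 higher and 0 lower with sgPHF8-3, 22 higher and 1 lower for both guides, and 26 higher and 0 lower between the guides. Under the block, ASPM (adjusted p = 0.0383) and CENPF (adjusted p = 0.0465) also passed with sgPHF8-3, and SMC2 did not pass in the mean of both guides (adjusted p = 0.055), nor did CENPK (adjusted p = 0.0511) and MKI67 (adjusted p = 0.0561) with sgPHF8-1 and ORC1 between the guides (adjusted p = 0.0539).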
